A study of Mus musculus with 6 samples.

Results

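The 49 genes described here build the response to broken DNA: the kinases and scaffold proteins that signal a break, the machines that rejoin or copy the broken ends, the topoisomerases whose trapped intermediates become breaks, and p53 with 2 of its partners. They were chosen by name from these pathways and not by a measured value, but with earlier results of these data known. All 49 were found among 21755 protein-coding genes of chromosomes 1 to 19 and X (GENCODE vM21 annotation, mm10). The question put to the data is how many break ends lie in these genes themselves, in their bodies and within 1 kb of their starts. The assay, BLISS, ligates adaptors to DNA ends inside fixed nuclei, and each sequenced read marks 1 end at its 5′ base; it reads DNA, so neither the activity of these genes nor the neuronal identity of the sorted cells can be checked from marker expression here.

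All 6 libraries came from sorted forebrain neurons of mice with the CK-p25 genotype, and all carry the same label of 2 weeks of induction by taking doxycycline out of the diet. In this line a promoter active in forebrain excitatory neurons (CamKII) switches on p25, a truncated activator of the kinase Cdk5, when doxycycline is absent. Titles divide the libraries into Con, Step1 and Step2, with 2 replicates in each. What the 3 names stand for is not given in the labels, and no group is labelled as lacking the transgene or the induction. Nor is it stated whether replicates are separate animals, so every p-value rests on library-to-library spread alone, some of which could be technical.

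A cell that meets a double-strand break first recognises the ends, through the Mre11-Rad50-Nbn complex or the Ku proteins. The kinases Atm, Atr and DNA-PKcs then mark the surrounding chromatin. Neurons no longer divide, so they rely mainly on end joining, whereas homologous repair needs a sister chromatid; p53 turns persistent damage into arrest or cell death. Topoisomerase 2 itself cuts both strands as part of its cycle, and in neurons its beta form does so at genes that respond to activity.

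Total reads ran from 1480461 to 2403238 per library, with the Step2 pair the shallowest and with 1.19 to 1.42 reads per distinct position, the highest value in Con replicate 2. Values in CPM are reads scaled to library size, which leaves out 26 piled-up windows of 10 kb; no member gene had a read in those windows. Such values give where ends lie, not how many breaks a cell has, and more cells with breaks cannot be told apart from more breaks per cell. Every library holds reads of 2 sequencing runs.

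The promoters of 4 members are shown because they held the most ends in the window from 250 bases before to 50 bases after the start, counting 1 read per position, strand and library. RefSeq sequence of GRCm38.p6 is given 5′ to 3′ on the gene's strand, from the first base of RefSeq's promoter window to the last base before the start, and capitals mark the 20 bases that held the most ends. Top2a (topoisomerase 2 alpha, the form of dividing cells) lies on the minus strand at chr11:99024190-99024439, Rad51b (a homologous repair gene) on the plus strand at chr12:79297032-79297281, Blm (the Bloom helicase) on the minus strand at chr7:80535120-80535248, and Chek2 (a checkpoint kinase downstream of Atm) on the plus strand at chr5:110839733-110839978.
Top2a: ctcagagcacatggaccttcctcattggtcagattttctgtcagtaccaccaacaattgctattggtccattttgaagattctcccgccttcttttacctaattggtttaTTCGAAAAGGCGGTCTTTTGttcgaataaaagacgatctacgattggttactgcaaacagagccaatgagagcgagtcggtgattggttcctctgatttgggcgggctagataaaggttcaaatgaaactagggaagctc
Rad51b: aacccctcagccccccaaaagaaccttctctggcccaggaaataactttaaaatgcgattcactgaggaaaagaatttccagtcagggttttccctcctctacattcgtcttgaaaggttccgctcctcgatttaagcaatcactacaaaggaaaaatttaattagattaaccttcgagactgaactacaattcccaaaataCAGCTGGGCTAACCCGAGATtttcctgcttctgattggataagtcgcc
Blm: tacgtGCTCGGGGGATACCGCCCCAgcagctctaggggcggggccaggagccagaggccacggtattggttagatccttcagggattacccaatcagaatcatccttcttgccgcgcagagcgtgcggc
Chek2: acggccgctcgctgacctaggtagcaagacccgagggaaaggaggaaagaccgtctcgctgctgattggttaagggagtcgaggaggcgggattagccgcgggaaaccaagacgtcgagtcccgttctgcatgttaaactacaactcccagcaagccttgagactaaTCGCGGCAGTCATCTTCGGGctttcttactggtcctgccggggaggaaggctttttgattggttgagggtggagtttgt

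The capitals of Top2a span 140 to 121 bases before its start and held 24 of the 53 ends in the printed stretch. In Rad51b they lie 48 to 29 bases before the start and held 18 of 21. The Blm capitals, 124 to 105 bases before the GENCODE start, held 16 of 22 ends; RefSeq places that start 121 bases further into the gene. Chek2 was more even, with 9 of 27 ends in the capitals, 79 to 60 bases before the start. RefSeq promoters, 300 bases long, were found for 40 members. For Xrcc6 and Fancc they belong to starts 28534 and 65533 bases further into the gene, outside the region where ends were counted. Both are kept in the counts below. Both hold CCAAT, and that of Xrcc6 also holds GGGCGG. In Chek1 and Xrcc1 the RefSeq start lay 407 and 410 bases further in. Searched on both strands, with overlapping matches of different motifs each counted, CCAAT was in 20 of the 40 (50%, against 37.4% of all 32851 promoters) and GGGCGG in 26 (65% against 35.7%), while TATAAA was in 3 (7.5% against 13.6%). The printed Top2a stretch holds CCAAT or its complement 6 times. Members' promoters had a median of 22 CpG pairs, against 7 in all promoters.

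Gene bodies of the repair genes carried break ends much as other genes do, in proportion to their length. Together they span 3642.084 kb, of which 3576.082 kb are determined bases, and held 15527 reads. Per kb, the pooled members were at 0.937 to 0.999 times all other protein-coding genes in the 6 libraries (all reads, outside piled-up windows). Across members, reads followed length with a Spearman rho of 0.98 (n = 49 genes), against 0.96 across 13764 other genes tested; genes share libraries and are not independent. The 5 longest members hold 38.6% of the length and 38.3% of the reads. Exons make up 9.98% of the bases and held 11.3% of the reads. No single position held more than 8.91% of a member's reads (Lig3, a DNA ligase).

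Density per determined kb, relative to all gene bodies and counted with 1 read per position and strand, had a median of 0.946 over the members against 1.01 over other genes tested. It ran from 0.765 in Rad54l to 1.16 in Top1. Counting error is wide for the short genes: Trp53, 11.515 kb long, was at 1.14 with a 95% counting interval of 0.845 to 1.5. That exact Poisson interval, as all intervals of levels here, covers counting error only.

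**Figure D1:**
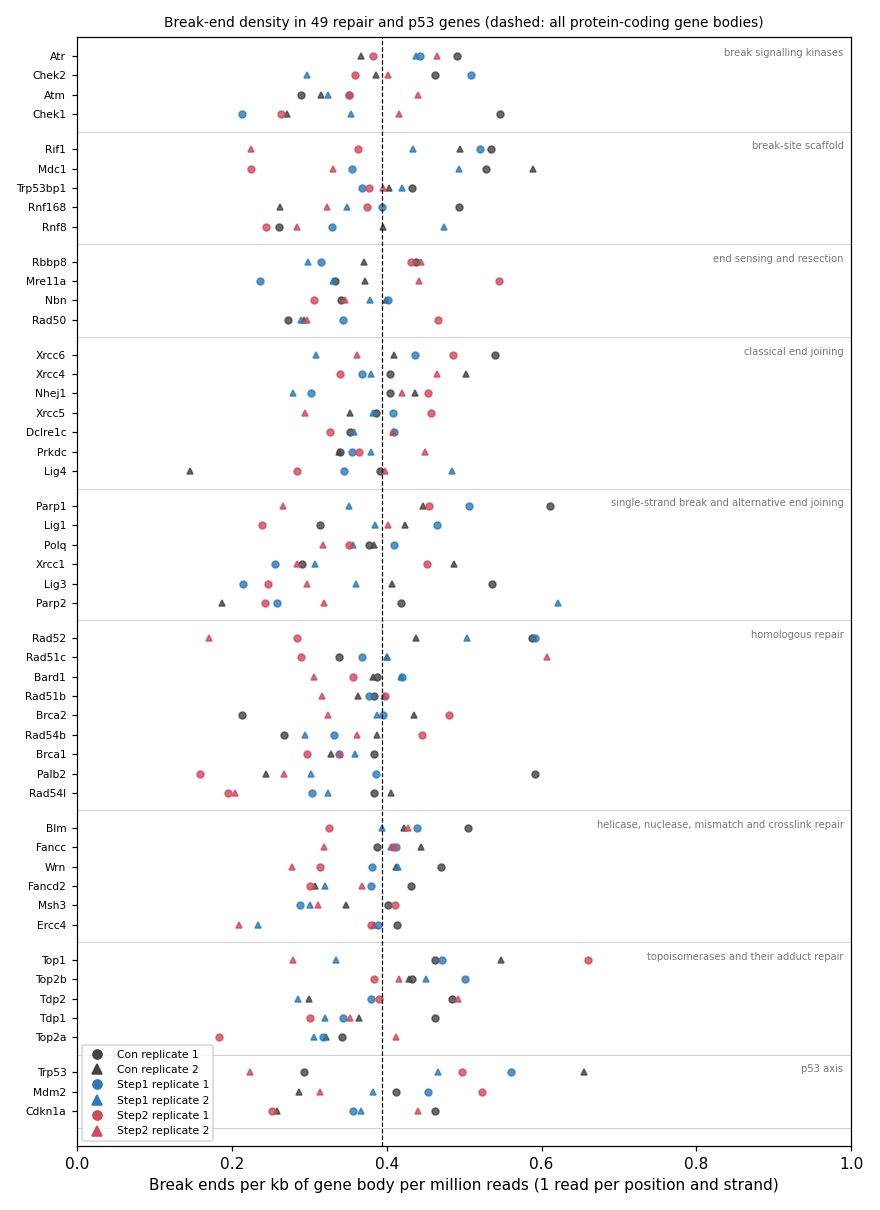
Break ends in CPM per kb of gene body, with 1 read per position and strand, for each of the 49 genes (rows, grouped by role) in each library (points; colour gives the group and shape the replicate). The dashed line is the mean over all protein-coding gene bodies; points of every role fall on both sides of it, and single genes spread widely between replicates.

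Among the signalling kinases, Atr, which answers single-stranded DNA at stalled forks, had the highest density. In CPM per kb it had 0.491 and 0.367 in Con, 0.443 and 0.437 in Step1 and then 0.382 and 0.465 in Step2. The 3 groups overlapped. Over the 4 kinases the relative density ran from 0.872 in Chek1 to 1.09 in Atr, with Atm, the main kinase of double-strand breaks, at 0.877.

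Of the scaffold proteins that gather on marked chromatin, Rif1, which with 53BP1 protects ends from resection, stood at 0.535 and 0.495 in Con, 0.521 and 0.434 in Step1 and then 0.363 and 0.225 in Step2. Mdc1, the reader of phosphorylated H2AX, stood at 0.528 and 0.589, then 0.356 and 0.493, then 0.225 and 0.331. In both genes the Step2 libraries lay below all other libraries. Such separation is common with 2 libraries per group. With 1 read per position, Step2 lay apart and below Con in 23.1% of all gene bodies tested, and below Step1 in 16.9%. The share with all 3 groups apart was not counted, so separations of single genes, here and below, are descriptions. Mdc1 rests on few reads, 90 over all libraries. The ubiquitin ligase Rnf8 was the lowest of the 5, at 0.841; Gm28043, another gene model, covers 99.7% of it, so its reads cannot be assigned to 1 of the 2.

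The end-sensing genes lay slightly below the average of all genes, from 0.832 in Rad50 to 0.971 in Rbbp8, the resection factor also called CtIP. Mre11a, the nuclease of the complex, was at 0.955 and Nbn at 0.919.

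In classical end joining, the longest member was Xrcc4, the ligase 4 partner, 315.6 kb on chromosome 13, with a relative density of 1.04. Prkdc, which encodes DNA-PKcs, was at 0.942. Xrcc6 (Ku70) reached 1.07, with 0.540 and 0.409 in Con, 0.437 and 0.309 in Step1 and then 0.485 and 0.361 in Step2; Desi1 overlaps 79.1% of it. The groups overlapped. Nhej1, the gene of XLF, shows how length matters: 41.8% of its annotated body is undetermined sequence, and its relative density is 0.564 per annotated base but 0.969 per determined base. Lig4, the ligase of this pathway, is short (8.638 kb) and had 3 to 9 reads per library.

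Single-strand repair and alternative end joining ran from 0.868 in Lig3 to 1.11 in Parp1, the sensor that coats nicks with poly(ADP-ribose). Parp1 stood at 0.610 and 0.447 in Con, 0.507 and 0.351 in Step1 and then 0.455 and 0.266 in Step2, with overlap between the groups. Polq, the polymerase of alternative end joining, was at 0.929.

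Homologous repair held the lowest gene and the longest one. Rad54l, a motor protein of homologous repair, had 0.383 and 0.406 in Con, 0.304 and 0.325 in Step1 and then 0.194 and 0.204 in Step2. The 3 groups did not overlap, on 7 reads in each Step2 library. Rad52, which anneals single strands, had 0.588 and 0.437, then 0.592 and 0.504, then 0.284 and 0.171, so Step2 was below all other libraries. Palb2, the link between Brca1 and Brca2, was the third lowest, with 0.592 and 0.244 in Con, 0.386 and 0.302 in Step1 and then 0.159 and 0.267 in Step2; Con overlapped both other groups. Rad51b, 517.4 kb long, was at 0.946, close to the median member.

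Among helicases, mismatch and crosslink genes, Blm led with 0.505 and 0.422 in Con, 0.439 and 0.394 in Step1 and then 0.325 and 0.427 in Step2. These groups overlapped as well. Ercc4, a structure-specific nuclease, was the lowest at 0.847.

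Topoisomerases spanned nearly the whole range. Top1, which relaxes DNA by nicking 1 strand, was the densest member at 1.16 (95% counting interval 1.04 to 1.29), with 0.462 and 0.548 in Con, 0.471 and 0.334 in Step1 and then 0.659 and 0.279 in Step2. The Step2 replicates of Top1 thus stood at the top and at the bottom of its 6 values. Its variance within groups was 7.74 times what counting gives, the highest of the members, whose median was 1.45 against 1.30 for other genes tested. Top2b, the form of neurons, was at 1.11 with 0.433 and 0.429, then 0.502 and 0.450, then 0.384 and 0.415, and here each group kept apart from the others. With all reads it was at 1.25, and 21 of its reads, or 5.25%, lay at 1 position of 1 library. Top2a, in contrast, had the second lowest body, at 0.796 (95% counting interval 0.643 to 0.976), with 0.343 and 0.322 in Con, 0.318 and 0.306 in Step1 and then 0.183 and 0.412 in Step2.

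Trp53 itself ranked second by density but on few ends. Its body had 6 and 15 reads in Con, 16 and 9 in Step1 and then 7 and 4 in Step2. Mdm2, the ligase that degrades p53, had 22 and 13, then 20 and 14, then 15 and 10. Cdkn1a, the p53 target that encodes p21, had 10 and 4, then 7 and 6, then 4 and 5. In CPM the Con and Step1 ranges overlapped for all 3.

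Gene starts of the members held more ends per kb than their bodies, 0.604 to 1.45 CPM per kb against 0.360 to 0.396 over the 6 libraries. Within 1 kb of the 49 starts lay 195 and 310 Con reads, 135 and 144 Step1 reads, and 92 and 112 Step2 reads. Per kb this was 1.51, 1.75, 1.19, 1.34, 1.19 and 1.41 times the starts of all other genes, in the same order, so every library was above 1. The excess sat close to the start: the ratio of density within 200 bases to density at 4 to 5 kb reached 7.12 and 15 in the Con libraries, 3.36 and 4.49 in those of Step1, and 3.67 and 3.22 in those of Step2. Other genes gave 2.95 and 4.78, 2.04 and 2.46, and 1.98 and 2.31. Most member ends lay before the start, with 136 against 59 after it in Con replicate 1 and 236 against 73 in Con replicate 2. In Step1 it was 83 against 52 and 97 against 47. In Step2 it was 50 against 42, nearly even, and 74 against 38.

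**Figure D2:**
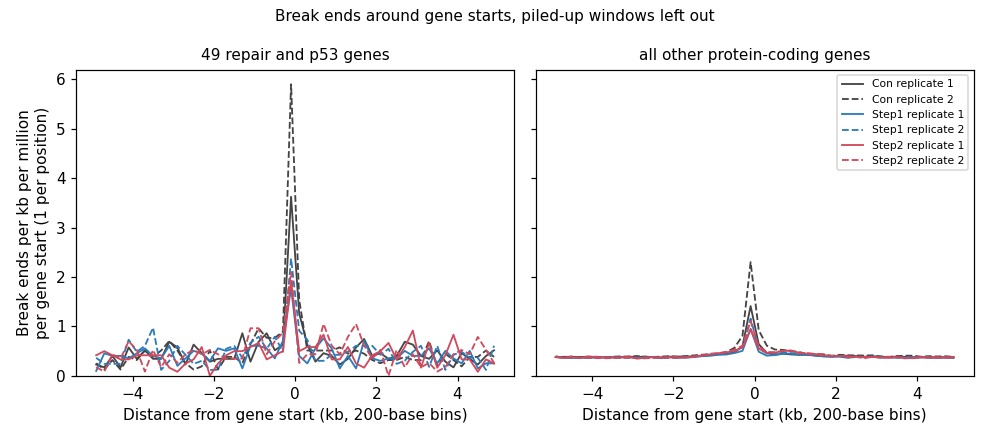
Break ends in CPM per kb per gene start, in bins of 200 bases by distance from the start (negative is upstream), with 1 read per position and strand, for the 49 repair and p53 genes (left) and all other protein-coding genes (right); each line is 1 library. In both sets the highest bin is the one just before the start, and the Con lines are the highest there, Con replicate 2 above Con replicate 1.

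Con replicate 2, the highest at starts, is also the library with the most reads per position. Reads were longest in Con (median 49 bases, against 48 for Step1 and 47 for Step2). With 1 read per position and strand, pooled member starts had a log2 ratio to Con of −0.65 in Step1 and −0.62 in Step2. Other genes had −0.35 and −0.24. Counted that way, the members' ratio of density within 200 bases to density at 4 to 5 kb was 6.97 and 12.1 in Con. It was 3.47 and 4.35 in Step1, and 3.62 and 2.76 in Step2. The part of read length and of reads per position in the start values was not tested.

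Gene starts that face each other on opposite strands are common in this set: 19 of the 49 members have an opposite protein-coding start within 1 kb, such as Atm with Npat, Brca1 with Nbr1 and Trp53 with Wrap53. Reads there cannot be assigned to 1 of the 2 genes. Members with such a partner had 4.68 and 8.21 reads per start in the Con libraries, and those without had 3.53 and 5.13. For other genes the values were 4.26 and 6.57 with a partner and 2.44 and 3.26 without. In Step1 and Step2, members with a partner had 2.21 to 3.32 reads per start and other genes with one 2.25 to 3.22. Members without a partner were above other genes without one in all 6 libraries. Members with a partner were above other genes with one in 5 of 6, and below in Step2 replicate 1 (2.21 against 2.25). Reads per start are not scaled to library size, and the Step2 libraries were the shallowest. Scaled to CPM per start, members with a partner reached 3.76 in Con replicate 2. Con replicate 1, at 2.13, was below Step2 replicate 2, at 2.23, and the remaining libraries ran from 1.45 to 1.65. For members without a partner, both Con libraries (1.60 and 2.35) were above all others (1.05 to 1.42).

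A few starts held much of the signal. The 4 highest members gave 34.9% and 33.2% of the reads in Con, 22.2% and 24.3% in Step1 and then 28.3% and 33.9% in Step2. The median member had 1 to 3 reads per library, and 3 to 11 members had none.

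Top2a had the most ends at its start, with 26 and 38 reads in Con, 8 and 9 in Step1 and then 7 and 10 in Step2. In CPM that was 11.8 and 17.4, then 3.51 and 4.64, then 4.80 and 7.05, with both Con libraries above the other 4. Of its 61 distinct ends, 57 lay before the start, and 34 of them in the 100 bases that begin 200 bases before it, around the capitals printed above. The gene thus combined the most ends at a start with one of the lowest bodies.

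Rad51b had 8.17 and 10.5 CPM at its start in Con, 3.07 and 2.06 in Step1 and then 2.74 and 7.05 in Step2, again with Con highest. Xrcc4 had 4.99 and 7.79, then 0.877 and 1.55, then 0.685 and 4.94, and the higher Step2 library came close to the lower Con one. Brca1, the ubiquitin ligase of homologous repair, had 5.90 and 9.16, then 2.63 and 5.15, then 1.37 and 1.41. Its Con libraries were above all others and its Step2 libraries below them. Its ends lay elsewhere: 39 of 44 distinct ends fell before the start, most densely in the 100 bases that begin 800 bases before it (18 ends), beyond the start of the opposite gene Nbr1.

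Chek2 had 2.27 and 9.16 CPM in Con, 3.51 and 2.58 in Step1 and then 2.74 and 2.12 in Step2. Blm had 3.63 and 10.1, then 2.19 and 4.12, then 2.06 and 2.82. In both, Con replicate 2 stood far above the other 5 libraries, which overlapped. Mre11a also peaked in Con replicate 2, with 3.18 and 7.33 in Con, 3.07 and 1.55 in Step1 and then 0.685 and 6.35 in Step2, and 19 of its 29 distinct ends lay in the last 100 bases before the start.

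Dclre1c, the end-trimming nuclease Artemis, had 0.908 and 5.04 CPM in Con, 2.19 and 2.58 in Step1 and then 0.685 and 1.41 in Step2. Mdc1 had 3.63 and 4.58, then 2.63 and 4.12, then 2.06 and 1.41. Trp53bp1, which encodes 53BP1, had 3.63 and 3.21, then 1.32 and 2.58, then 2.06 and 1.41, and both of its Con libraries were above the rest. Trp53 differed from these: its start had 1 and 4 reads in Con, 4 and 8 in Step1 and then 6 and 3 in Step2, so the Con libraries were not the highest.

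**Figure D3:**
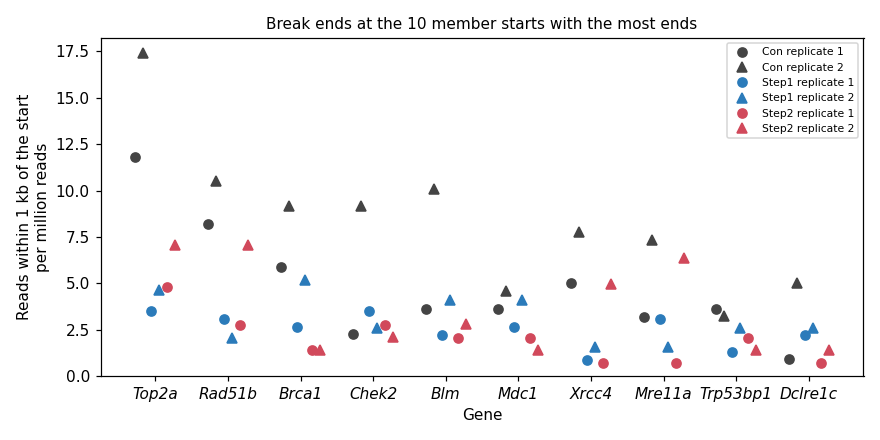
CPM within 1 kb of the start for the 10 members with the most ends there, ordered by their ends counted once per position and strand; each point is 1 library, with colour for the group and shape for the replicate. Top2a reaches 17.4 in Con replicate 2, and in Chek2, Blm and Dclre1c that library stands alone.

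**Figure D4:**
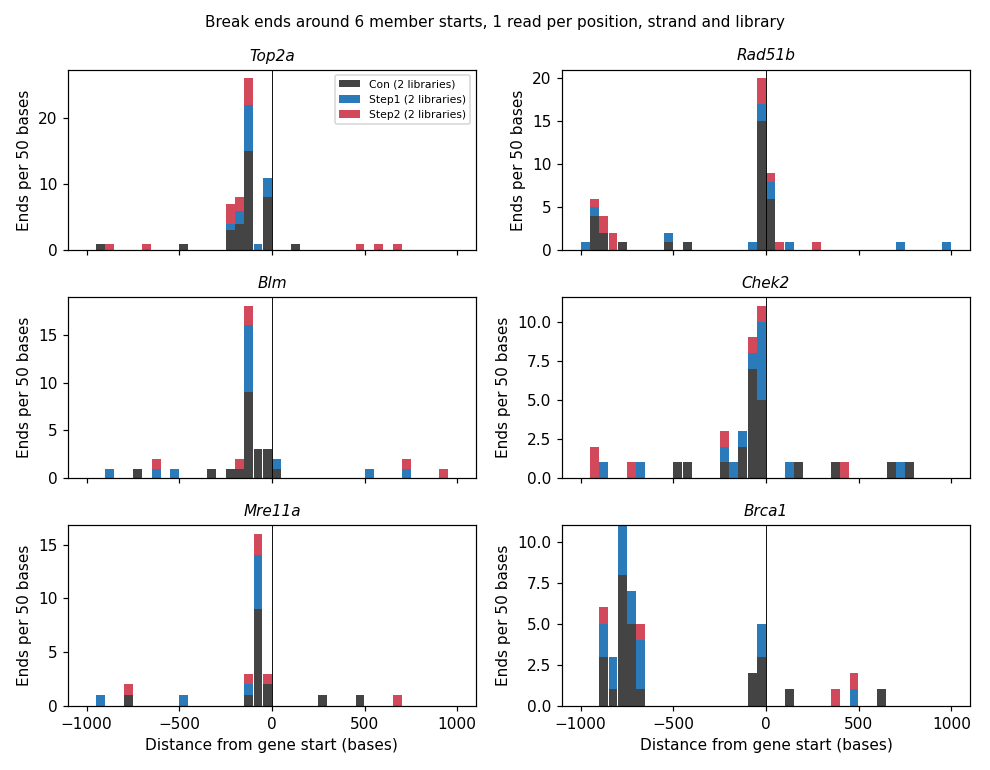
Distinct break ends per 50 bases by distance from the start (negative is upstream) at 6 members, stacked by group with 2 libraries each, counting 1 read per position, strand and library. The highest bars of Top2a, Rad51b, Blm, Chek2 and Mre11a lie in the last 250 bases before the start, and that of Brca1 further upstream.

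The comparison of Step1 with Con asks whether these genes carried a different share of break ends in the 2 groups. No member gene body differed past the threshold, and the pooled starts were lower in Step1. The bodies held 1414 and 1372 CPM in Con and 1339 and 1323 in Step1, a log2 ratio of −0.066 (Con 1393 ± 29.9, Step1 1331 ± 11.3; SD, n = 2), beside −0.056 for other genes outside piled-up windows. Within sequencing runs 1 and 2 the ratio was −0.017 and −0.10. With 1 read per position it was −0.087, beside −0.061 for other genes. Limma's voom fit over 13811 gene bodies, with Benjamini-Hochberg adjustment and a threshold of 0.05, called 0 of 47 members tested, where 0.123% of all genes were called; Lig4 and Cdkn1a had too few reads to be tested. At an unadjusted p below 0.05 were 2 members, against 7.08% of all genes. Both groups' libraries were apart in 12 members that were lower in Step1 (21.3% of all genes) and in 4 that were higher (15.4%). The median log2 fold change was 0.00 over members and −0.04 over all genes.

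The smallest p belonged to Xrcc4, with 132 and 155 CPM in Con and 113 and 118 in Step1. Its log2 fold change was −0.31 ± 0.12 (SE; adjusted p = 0.599). The mismatch gene Msh3 had 55.4 and 47.2 CPM against 39.0 and 39.7 (−0.38 ± 0.19, adjusted p = 0.704), and Lig3 had 10.9 and 12.8 against 7.02 and 7.21 (−0.71 ± 0.39, adjusted p = 0.728). In all 3 genes the CPM ranges of Con and Step1 were apart. In the other direction were the crosslink gene Fancd2 (0.36 ± 0.25, adjusted p = 0.791), the homologous repair gene Brca2 (0.38 ± 0.32, adjusted p = 0.832) and Rad50, the ATPase of the sensing complex (0.28 ± 0.31, adjusted p = 0.881). With 1 read per position Fancd2 was at −0.067, and without Con replicate 1 Brca2 was at −0.042. Counted that way 0 of 46 members tested were called (0.118% of all genes), and 5 were at an unadjusted p below 0.05 (8.23% of all genes).

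At starts, the pooled members had 88.5 and 142 CPM in Con and 59.2 and 74.2 in Step1 (115 ± 37.8 against 66.7 ± 10.6; log2 ratio −0.79), beside −0.41 for the starts of other genes. Both Con libraries were above both Step1 libraries, but with scalings computed on the starts themselves the ratio was 0.22 and 0.23. Without Con replicate 2 the ratio was −0.41, beside −0.16 for other genes; within the sequencing runs it was −0.80 and −0.81. Only 4 members had the 10 reads in 2 libraries needed for a test, and they reached it mainly through Con, so the filter itself favours lower values elsewhere. Of 917 starts tested, 0.109% were called, and none of the 4 members; 2 of the 4 were at an unadjusted p below 0.05, against 23.9% of all starts tested. Top2a had a log2 fold change of −1.78 ± 0.51 (adjusted p = 0.199) and Rad51b of −1.75 ± 0.66 (adjusted p = 0.199), where the median of all starts tested was −0.95. Without Con replicate 1, which leaves 1 Con library whose spread is taken from the other groups, 217 of all starts were called, against 1 with all libraries. Top2a was among them, at −2.07 (adjusted p = 0.00415), where the median of all starts tested was −1.21.

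Step2 was set against the same 2 Con libraries, so the comparison is not independent of the previous one. Again no gene body was called and the pooled starts were lower. Bodies held 1348 and 1287 CPM in Step2 (1317 ± 43.7; log2 ratio −0.081 to Con, beside −0.056 for other genes), with −0.040 and −0.12 within runs 1 and 2. Without Step2 replicate 2 the ratio was −0.047, beside −0.054 for other genes, and without Con replicate 1 it was −0.059, beside −0.069. Without Step2 replicate 1 it was −0.115, beside −0.058, and without Con replicate 2 it was −0.102, beside −0.042. With 1 read per position it was −0.105, beside −0.054, and without Step2 replicate 2 that became −0.072, beside −0.052. The fit called 0 of 47 members, against 0.0941% of all genes. At an unadjusted p below 0.05 was 1 member, Rif1, against 7.77% of all genes. Libraries were apart and lower in Step2 for 10 members (21.7% of all genes) and higher for 4 (15.2%). The median was −0.13 over members and −0.04 over all genes. With 1 read per position 0 of 46 members were called (0.126% of all genes), and 3 were at an unadjusted p below 0.05 (7.97%).

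Rif1 had 24.0 and 21.1 CPM in Con and 18.5 and 9.87 in Step2, a log2 fold change of −0.71 ± 0.34 (adjusted p = 0.628). Rad52 was at −1.07 ± 0.62 (adjusted p = 0.717) and Lig3 at −0.80 ± 0.47 (adjusted p = 0.720). The groups were apart in each. With the opposite sign, Atm had 26.8 and 32.1 CPM in Con and 32.9 and 47.3 in Step2 (0.43 ± 0.24, adjusted p = 0.698). Rad50 was at 0.54 ± 0.32 (adjusted p = 0.722) and Prkdc at 0.21 ± 0.16 (adjusted p = 0.786), the latter with overlapping groups.

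Summed by role, scaffold genes were lower and end-sensing genes higher in Step2 than in the other libraries. The 5 scaffold genes together had 84.9 and 81.1 CPM in Con, 80.7 and 86.0 in Step1 and then 68.5 and 62.8 in Step2. The 4 end-sensing genes had 82.1 and 89.3, then 78.9 and 78.8, then 107.6 and 99.5. In both roles the Step2 libraries lay outside the range of the other 4, also with 1 read per position. The helicase, mismatch and crosslink genes did so with all reads (248.8 and 227.1 against 250.1 or more) but not with 1 read per position (254.2 and 221.5 against 253.8 or more). In single-strand repair and alternative end joining, the Step2 libraries lay below the other 4 with 1 read per position, but not with all reads. With 1 read per position the means were 87.0 CPM in Con, 80.7 in Step1 and 70.7 in Step2. These roles were singled out of 9 after their values were seen and carry no test.

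**Figure D5:**
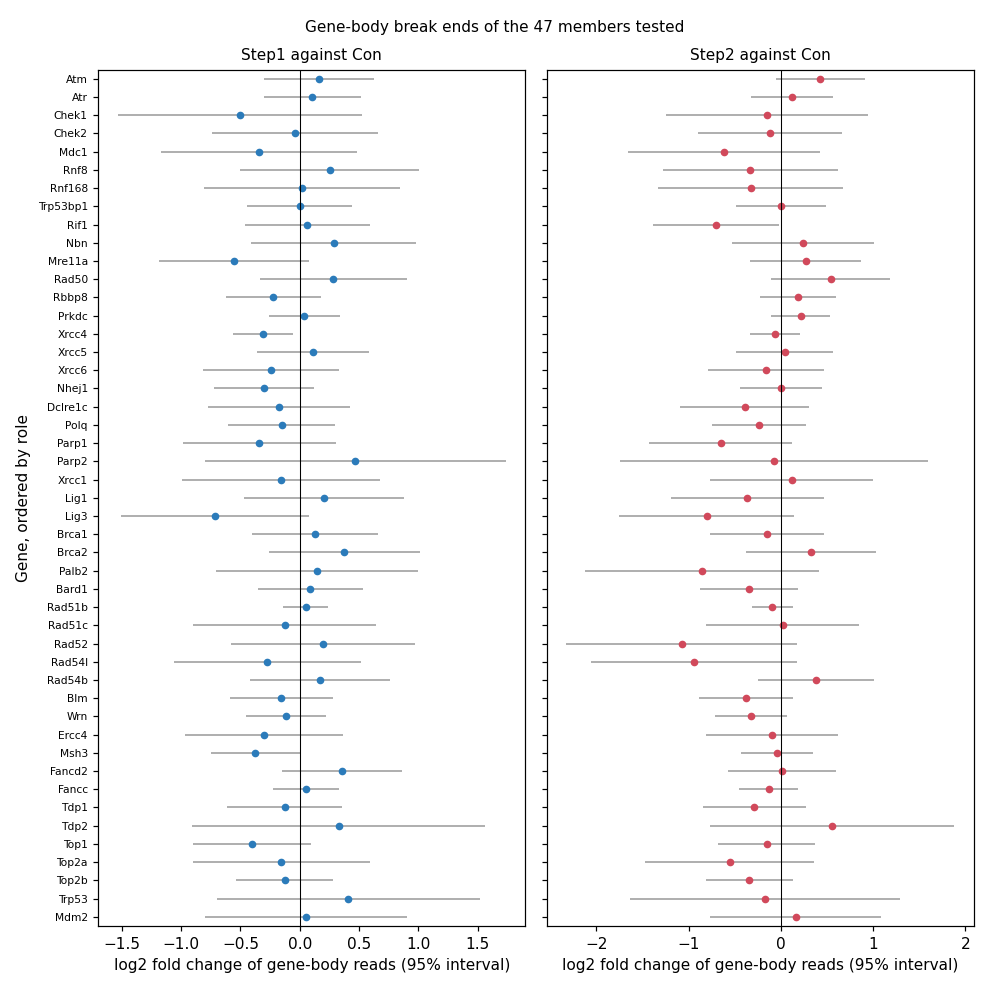
Log2 fold changes of gene-body reads with 95% intervals from limma for the 47 members tested, ordered by role, in Step1 (left) and Step2 (right) against the same Con libraries. Nearly all intervals reach across 0; those of Xrcc4 and Msh3 on the left and Rif1 on the right do not, and none of the 3 passed the threshold after adjustment.

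Starts of the pooled members had 63.1 and 79.0 CPM in Step2 (71 ± 11.3), a log2 ratio of −0.70 to Con beside −0.36 for other genes. Both values were below both Con libraries, but with scalings computed on the starts the ratio was 0.57 and 0.51. Without Con replicate 2 the ratio was −0.32, beside −0.11 for other genes, and within runs 1 and 2 it was −0.54 and −0.82. None of the 4 starts tested was called, against 0.109% of all starts, and 1 was at an unadjusted p below 0.05, against 20.7%. Top2a was at −1.24 ± 0.51 (adjusted p = 0.228) and Brca1 at −2.13 ± 1.10 (adjusted p = 0.248), where the median of all starts tested was −1.19. Without Con replicate 1, again with a lone Con library assumed to vary like the other groups, 162 of all starts were called, against 1 with all libraries. Top2a was among them, at −1.52 (adjusted p = 0.0452), which was also the median of all starts tested.

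Step2 was then set against Step1. Pooled bodies differed by −0.01 on the log2 scale (0.00 for other genes) and pooled starts by 0.09 (0.05 for other genes). The difference at starts was −0.062 without Step1 replicate 1, −0.080 without Step2 replicate 2 and 0.26 without Step1 replicate 2, and 0.35 with median-of-ratios scaling, so its direction depended on the library left out. The fits called 0 of 47 bodies, where 0.0434% of all genes were called, and 0 of 4 starts, where 0% of all starts were called; 0 of the 4 starts were at an unadjusted p below 0.05, against 2.29%. At an unadjusted p below 0.05 were 3 bodies, against 3.42% of all genes. They were Mre11a, with 11 and 16 CPM in Step1 and 26 and 20.5 in Step2 (0.82 ± 0.33, adjusted p = 0.999), Rif1 (−0.77 ± 0.34) and Rad52 (−1.27 ± 0.62), both with the same adjusted p of 0.999. Bard1, the partner of Brca1, was at −0.43 ± 0.26, Rbbp8 at 0.41 ± 0.21 and Xrcc4 at 0.24 ± 0.14, and these also had an adjusted p of 0.999. With 1 read per position 0 of 46 were called (0.0315% of all genes), and 6 were at an unadjusted p below 0.05 (4.89%). Xrcc4 went to −0.044 without Step2 replicate 2, the library in which it was highest. At starts, Rad51b was at 0.74 ± 0.70, Top2a at 0.54 ± 0.53 and Brca1 at −1.14 ± 1.11 (adjusted p = 0.971 for each).

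Bodies of other genes of the same pathways were tested in the same fit. Limma called none of them in either comparison with Con: 0 of 13 further break-signalling genes tested, 0 of 6 of end joining, 0 of 20 of homologous repair, 0 of 26 of crosslink and excision repair and 0 of 16 p53 targets and regulators. At an unadjusted p below 0.05 in Step1 were 5 of the 26 crosslink and excision genes, all lower, and in Step2 4 of the 26, all lower. In homologous repair 1 gene was lower and 2 were higher in Step1, and 3 were higher in Step2. Of the p53 list, 2 were lower and 1 was higher in Step1, and 2 were lower in Step2. The other 2 lists had none. Among bodies of marker genes, which say where ends lie and not which cells were present, 0 of 6 excitatory neuron, 0 of 5 astrocyte, 0 of 4 oligodendrocyte and 0 of 3 microglia genes were called in either comparison.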

How the data were processed

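Per the submitters' processing notes and the series' design text, duplicates were removed by molecular identifier and reads aligned to mm10 (Bowtie2, SAMtools, bedtools; no versions given). A deposited line holds 1 read, whose score is the mapping quality the authors' aligner gave, from 11 to 42. Reads were counted at their 5′ end in gene bodies and within 1000 bases of gene starts, with all reads and with 1 read per position and strand. A filter kept features with at least 10 reads in 2 or more libraries. All 6 libraries then entered a voom fit in limma 3.58.1 with a mean for each group (R 4.3.3, two-sided). P-values were adjusted over all features of a kind. The procedure was tested on simulated counts with 1 fixed spread for every feature. That run cannot show how the fit handles the spread between these libraries, such as that of Con at starts. Piled-up windows hold over 20 times the median of a nonzero window (45.0 reads). Density leaves out bases undetermined in the assembly, a choice made after the value of Nhej1 was seen. The members and lists were chosen with earlier results of these data known, so counts over them are descriptions. Levels by library are given for the 10 densest, 3 least dense and p53 genes and the 10 starts with the most ends; fold changes for the 3 smallest p per direction in bodies and 2 at starts. Alternatives were other scalings, filters, run, mapping quality of at least 30, feature size, a replicate block and each library left out. Reads were counted in Python 3.11.15 (pandas 2.3.3, numpy 2.4.6, SciPy 1.17.1) and drawn with matplotlib 3.10.9.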

Additional observations from a re-analysis of the deposited data

How the results depend on the processing

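No member body was called under any alternative run. Of 413 alternative values of the member results named with a fold change, 409 kept their direction. Some alternatives left out a library of the group not compared, which hardly moves a fold change. The results were also named for a small p, so kept directions are a weak check. The 4 that reversed included Fancd2 in Step1 with 1 read per position (−0.067) and the Top2a start in Step2 with median-of-ratios scaling (0.013). Brca2 in Step1 reversed without Con replicate 1 (−0.042, the lowest of a range up to 0.79 with 1 library left out). Xrcc4 in Step2 against Step1 reversed without Step2 replicate 2 (−0.044, with a range up to 0.54). Pooled bodies in Step1 moved to −0.029 with median-of-ratios and −0.027 with trimmed-mean scaling, −0.017 in run 1 and −0.10 in run 2; in Step2 they moved to −0.033 with median-of-ratios scaling and −0.040 in run 1. Pooled starts changed sign where the scaling was computed on starts: 0.22 (median of ratios) and 0.23 (trimmed mean) in Step1, and 0.57 and 0.51 in Step2. In Step2 against Step1 the main ratio of 0.09 was already positive and rose to 0.35 with median of ratios. These scalings set the bulk of tested starts to no change by construction, moving their median in Step1 from −0.95 to 0.04. With one library left out, pooled starts ranged from −1.09 to −0.41 in Step1 and from −0.999 to −0.32 in Step2, and called member starts from 0 to 1 in each; the 1 came without Con replicate 1, where Con was a lone library and 217 and 162 of all starts were called. Pooled starts in Step2 against Step1 ranged from −0.080 to 0.26, and pooled bodies from −0.088 to −0.044 in Step1, from −0.115 to −0.047 in Step2 and from −0.049 to 0.019 in Step2 against Step1. Deviations of replicates with the same number had correlations of 0.033, 0.005 and −0.005 over 13811 bodies. Over 917 starts they were 0.067, −0.038 and 0.049, so none was above 0.1. The main fit carried no replicate term. Variance of bodies within groups was a median of 1.45 (members) and 1.30 (other genes tested) times that of counting, so these correlations are a weak check for a shared batch. Pooled member starts were higher in replicate 2 in all 3 groups. So were reads per position and the share of run 1 reads (48.7, 45.9 and 49.9% against 43.3, 40.4 and 43.0%). With the replicate block 2 member starts were called in Step1, Top2a (−1.78, adjusted p = 0.0138) and Rad51b (−1.82, adjusted p = 0.0362), while 168 of all starts were called; in Step2 136 were. Few reads limit the starts, where 45 members could not be tested.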
